A study of Mus musculus with 6 samples.

Results

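Interleukin 1 (IL-1) is an inflammatory cytokine system with built-in brakes. Its agonist ligands are IL-1α and IL-1β, and caspase-1, the protease of the inflammasome, cuts IL-1β and its relative IL-18 into their active forms. The ligands bind the receptor IL1R1, which recruits the co-receptor IL1RAP and signals through the adaptor MYD88 and the kinase IRAK1 to NF-κB. The receptor antagonist encoded by Il1rn occupies IL1R1 without signalling, and the decoy receptor IL1R2 binds IL-1 but lacks the signalling domain. In the bone marrow, IL-1 is known for driving stem and progenitor cells towards the myeloid lineage.

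The genes described here are 10 of this system: Il1a, Il1b, Il18, Il1rn, Il1r1, Il1r2, Il1rap, Casp1, Myd88 and Irak1. They were chosen by gene symbol, and all 20 probe sets whose only platform symbol is one of them were taken, of 45037 probe sets and 18193 named genes measured. The 10 genes were all present, with 1 probe set for 6 of them, 2 for Il1r1, 3 for Il1rn, 4 for Irak1 and 5 for Il1rap.

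RNA came from sorted bone marrow progenitor cells of a mouse leukaemia model, called LGMP in the labels, and was measured on 6 Affymetrix arrays. Every sample derived from cKit+ cells infected with MLL-AF9-IRES-YFP, in which the leukaemia fusion gene MLL-AF9 is linked to a yellow fluorescent protein. The cells carried a single ROSA CreERT2 allele (ROSAwt/CreERT2), a recombinase that tamoxifen activates. The WT group (n = 3) had the genotype EF1αwt/wt and the N1-IC group (n = 3) the genotype EF1αwt/lsl-N1-IC, with a Notch1 intracellular domain placed in that locus behind a stop (lsl) that Cre removes. Irradiated wild-type recipients aged 12 weeks got 50000 such cells with 250000 wild-type support marrow cells, and at 4 weeks after transplantation both groups received 2 tamoxifen injections of 0.2 mg per g. Marrow was taken 6 days after the last injection and sorted as lineage negative, cKit+, Sca1-, YFP+, CD34+ and FcgRII/III+. The labels give male for each WT sample and female for each N1-IC sample, so genotype and sex cannot be told apart. The labels do not say how many mice stood behind a sample, so the p-values rest on the spread between these 6 arrays, which may be technical.

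Values are log2 of the deposited intensities, 1 per probe set and array, and differences are N1-IC minus WT. The array medians lay at 5.63 to 5.67 and the lower quartiles at 3.86 to 3.91 log2 units. Of 5 genes of the sort gate, 4 had a probe set with a single gene symbol. Their means were 11.72 to 11.97 on the WT arrays and 11.35 to 11.70 on the N1-IC arrays. Every N1-IC array thus lay lower. Of these genes only Cd34 was lower on every N1-IC array (log2 difference of -0.72, limma adjusted p of 0.644). The groups overlapped for Fcgr3 (-0.25), Fcgr2b (-0.16) and Kit, which hardly differed (-0.0028). Primary granule genes, typical of this progenitor stage, had means of 13.75 to 13.94 per array. Of the lists for other cells, 5 of 7 T lineage, 4 of 6 B lineage, 3 of 5 NK cell and 4 of 5 dendritic cell genes lay below the median probe set. So did 4 of 11 monocyte and macrophage, 2 of 9 mast cell, basophil and eosinophil, 2 of 10 erythroid and megakaryocyte and 1 of 10 late granulocyte genes. Over all genes by their brightest probe set it was 7368 of 18193. The mast cell, basophil and eosinophil list had means of 6.99 to 8.92 per array. In bulk RNA, fewer cells of a type and less RNA per cell cannot be told apart. The array of WT replicate 1 stood apart on the late granulocyte list, with a mean of 7.77 against 10.05 to 10.72 on the other 5 arrays. WT replicate 2 stood apart by Xist, the RNA of the inactive X chromosome, at 10.70 against 5.64 and 5.42 in the other WT samples and 12.73 to 12.82 in N1-IC. The Y-linked gene Eif2s3y lay at 11.31, 10.34 and 11.26 in WT replicates 1, 2 and 3 against 2.94 to 3.46 in N1-IC. WT replicate 2 thus had high values of both genes, and the reason was not tested. In WT replicate 2 the mean of the erythroid and megakaryocyte list was 8.87, against 5.80 to 6.45 elsewhere. Of 4 Notch target genes, Nrarp, Hes1 and Hey1 had all 3 N1-IC arrays above all 3 WT arrays (log2 differences of 2.83, 1.203 and 0.35, limma adjusted p of 0.639 each), beside 8.32% of all genes by their brightest probe set. The fourth, Dtx1, overlapped (-0.09, limma adjusted p of 0.823), as did Notch1 itself (-0.0041); whether the Notch1 probe set covers the part that N1-IC encodes was not analysed here.

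N1-IC was set against WT to see how the genes of the IL-1 system differed between the genotypes. No member passed a limma adjusted p of 0.05: 0 of the 20 probe sets were called, where 4 of all 45037 (0.00888%) were (8 without WT replicate 2), and the smallest adjusted p among members was 0.521. All 4 called probe sets were lower in N1-IC. The only gene called by its brightest probe set was the Y-linked Eif2s3y (log2 difference of -7.75, limma adjusted p of 0.00198). Sex coincided with genotype, so these calls cannot be assigned to genotype. At an unadjusted p under 0.05 there were 5 member probe sets, 4 with a higher and 1 with a lower mean in N1-IC, beside 7.7% of all probe sets. The 4 higher ones were the 3 probe sets of Il1rn, which share its RNA, and that of Myd88, and the lower one was of Irak1. By the brightest probe set these were 3 of 10 genes, beside 7.22% of all genes. The antagonist gene Il1rn had the largest difference, with means 2.01 to 2.99 times as high in N1-IC by its 3 probe sets. Myd88 was slightly higher and Irak1 slightly lower. The 3 ligand genes and those of IL1R1, IL1R2, IL1RAP and caspase-1 had overlapping groups by their brightest probe sets.

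**Figure D1:**
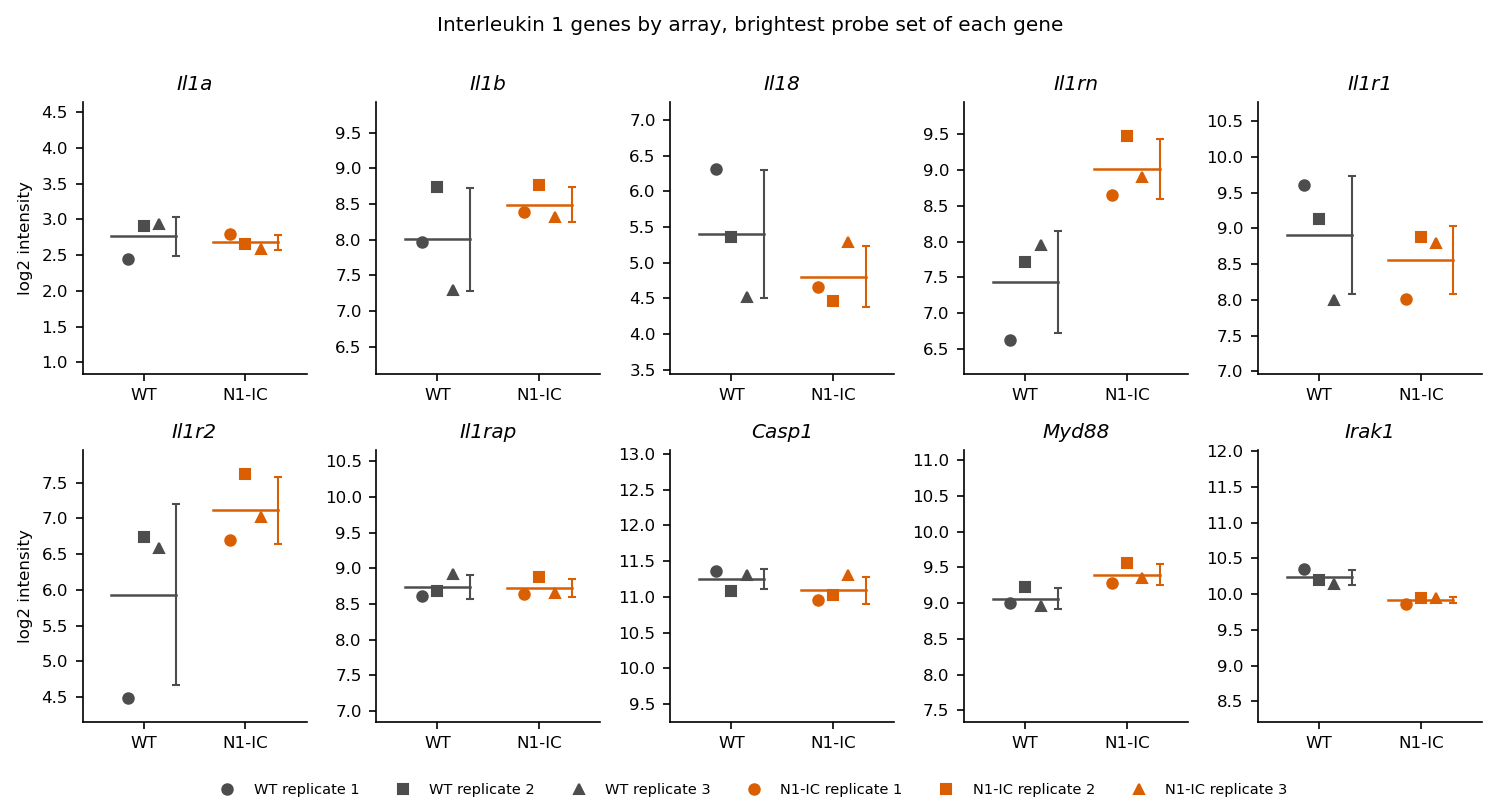
Log2 intensity (y axis, each panel spanning 3.8 log2 units) of the brightest probe set of each of the 10 genes on the 3 WT and 3 N1-IC arrays; horizontal lines are group means and bars the SD. Il1rn and Myd88 lay higher and Irak1 lower on all N1-IC arrays than on all WT arrays, and the other 7 genes overlapped.

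Among the probe sets, 3 had all N1-IC arrays above all WT arrays and 4 had all of them below, beside 14.4% of all probe sets whose groups did not overlap in either direction (7.4% higher, 7.02% lower). These 7 came from 4 genes, with 2 from Il1rn, 1 from Myd88, 3 from Irak1 and 1 from Il1r1. Probe sets of a gene share its RNA and are not independent. Without WT replicate 2 the groups did not overlap for 12 of the 20 probe sets, 6 higher and 6 lower, beside 22.9% of all. By the brightest probe set 3 of 10 genes had groups that did not overlap, beside 14.8% of all genes. The median log2 difference of the 10 genes was -0.05, beside 0.01 over all genes by their brightest probe set.

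**Figure D2:**
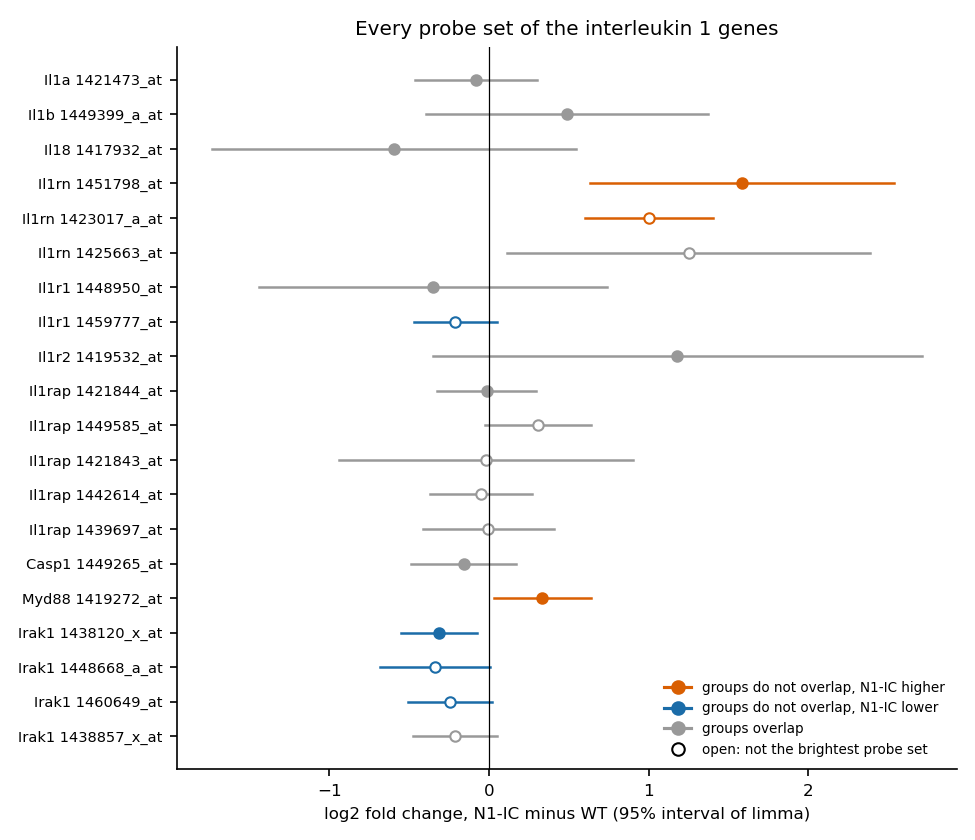
Log2 fold change, N1-IC minus WT (x axis), of each of the 20 probe sets, with limma's 95% interval; filled points are the brightest probe set of a gene. The 3 probe sets of Il1rn lie between 1.01 and 1.58, and the 4 probe sets of Irak1 between -0.34 and -0.21.

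Il1rn was described by 3 probe sets that all had a higher mean in N1-IC. By the brightest of them, 1451798_at, it had log2 values of 6.62, 7.72 and 7.95 on the arrays of WT replicates 1, 2 and 3 and of 8.66, 9.48 and 8.91 on those of N1-IC replicates 1, 2 and 3. All N1-IC arrays were above all WT arrays, and the nearest ones were 0.70 apart. The group means were 7.43 ± 0.711 and 9.01 ± 0.421 (SD, n = 3 each), a log2 difference of 1.58 ± 0.39 (standard error, limma unadjusted p of 0.0064, adjusted p of 0.639). Of 18193 genes, 49 had a higher log2 difference and 143 a smaller p.

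The probe set 1423017_a_at of Il1rn had log2 values of 5.11, 5.08 and 4.80 in WT against 6.03, 6.25 and 5.73 in N1-IC. Its WT arrays lay within 0.31 log2 units of each other, and all were below the N1-IC arrays. The log2 difference was 1.01 ± 0.17, with the smallest limma p of all member probe sets (unadjusted p of 0.0008, adjusted p of 0.521). The third probe set, 1425663_at, had 4.16, 4.11 and 5.76 in WT against 6.25, 5.93 and 5.61 in N1-IC. Here WT replicate 3 lay above N1-IC replicate 3, and the groups overlapped, with a log2 difference of 1.25 ± 0.47 (limma unadjusted p of 0.036, adjusted p of 0.639). Without WT replicate 3 this probe set had a log2 difference of 1.79 (limma unadjusted p of 0.00034, adjusted p of 0.27). Leaving that array out left 32.3% of all probe sets without overlap. With any other array left out the log2 difference was smaller. It ran from 0.96 without WT replicate 2 (limma unadjusted p of 0.111) to 1.41 without N1-IC replicate 3 (limma unadjusted p of 0.0466). Which Il1rn transcripts each probe set covers was not analysed here.

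**Figure D3:**
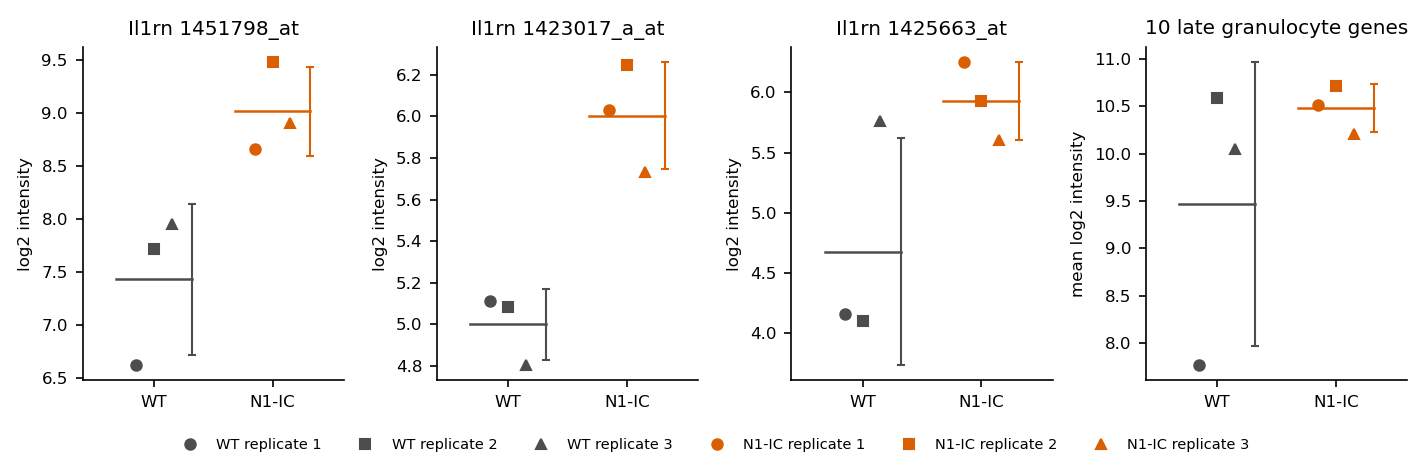
Log2 intensity (y axis, scaled per panel) of the 3 probe sets of Il1rn and the mean of 10 late granulocyte genes, on the 3 WT and 3 N1-IC arrays; horizontal lines are group means and bars the SD. For the 2 probe sets on the left all N1-IC arrays lie above all WT arrays, while the granulocyte mean is low only in WT replicate 1.

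The late granulocyte genes were higher in mean in N1-IC for 10 of 10 measured members, with 1 of them higher on every array, and the list mean ranged from 7.77 to 10.59 in WT against 10.21 to 10.72 in N1-IC. The monocyte and macrophage genes had a higher mean for 6 of 11 members, 3 of them on every array, beside 8.32% of all genes higher on every array, with list means of 7.52 to 7.80 in WT against 7.64 to 7.86 in N1-IC. Without WT replicate 1, the array with the lowest granulocyte mean, the log2 difference of the brightest Il1rn probe set was 1.18 (limma unadjusted p of 0.0064, adjusted p of 0.804). The part of other cell types in the Il1rn difference was not tested.

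Il1rn has more than one transcription start in RefSeq, and the stretches before them are shown because this gene had the largest difference. The 250 bases before each start in the RefSeq table (GRCm38.p6) were searched on both strands for GGGNNNNNCC, the letters of a κB site bound by NF-κB, and for TGGGAA, the core bound by RBPJ, the DNA-binding partner of the Notch intracellular domain. Matches are in capitals. The upstream window is chr2:24336610-24336859 and the downstream window chr2:24345121-24345370, both on the plus strand.

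Il1rn, upstream start: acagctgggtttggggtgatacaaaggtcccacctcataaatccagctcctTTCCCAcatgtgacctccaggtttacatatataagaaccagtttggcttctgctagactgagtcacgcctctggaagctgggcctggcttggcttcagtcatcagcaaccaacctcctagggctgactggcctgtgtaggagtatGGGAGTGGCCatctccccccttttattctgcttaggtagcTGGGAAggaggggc

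Il1rn, downstream start: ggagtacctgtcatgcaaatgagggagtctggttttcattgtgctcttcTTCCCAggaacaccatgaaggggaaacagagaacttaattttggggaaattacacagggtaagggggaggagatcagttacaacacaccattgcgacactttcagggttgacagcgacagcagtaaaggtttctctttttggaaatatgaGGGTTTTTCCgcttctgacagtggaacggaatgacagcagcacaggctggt

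The upstream window held 2 matches to TGGGAA, starting 199 bases before the start site on the minus strand and 14 bases before it on the plus strand, and 1 match to GGGNNNNNCC on the plus strand, 54 bases before it. The downstream window held 1 match to TGGGAA (201 bases before the start, minus strand) and 1 to GGGNNNNNCC (51 bases before it, plus strand). The table has another Il1rn start, whose window chr2:24345041-24345290 overlaps the downstream one and shares its TGGGAA match. Such matches are frequent: of 32851 windows of this length in the table, 21.6% held TGGGAA and 45.8% held GGGNNNNNCC. All 10 genes had at least 1 window, and 7 of their 14 windows, some overlapping, held each motif. The windows of Myd88, Il18 and Il1r2 held neither. A match is a run of letters, and no binding was measured.

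Of the ligands, Il1b, which encodes IL-1β, had log2 values of 7.97, 8.74 and 7.29 in WT against 8.38, 8.77 and 8.32 in N1-IC. The N1-IC arrays lay close together, and WT replicate 2 reached their level while WT replicate 3 was the lowest. The log2 difference was 0.49 ± 0.36 with a 95% interval of -0.40 to 1.37 (limma unadjusted p of 0.228, adjusted p of 0.718). It rested on single arrays, at 0.86 without WT replicate 2 (unadjusted p of 0.0195, adjusted p of 0.807) and 0.13 without WT replicate 3. Il18, the gene of IL-18, had 6.32, 5.36 and 4.53 in WT against 4.66, 4.47 and 5.29 in N1-IC. WT replicate 1 was the highest of the 6 arrays and the groups overlapped, with a log2 difference of -0.59 ± 0.47 (limma adjusted p of 0.728), -0.13 without WT replicate 1 and -1.03 without WT replicate 3. Il1a, the gene of IL-1α, lay at 2.45 to 2.93 in WT against 2.59 to 2.79 in N1-IC, below the lower quartile of every array. No detection calls were used, so it is unknown if Il1a exceeded background, and its log2 difference of -0.08 ± 0.16 says little.

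Of the receptors, Il1r1, the signalling receptor gene, had log2 values of 9.60, 9.13 and 7.995 in WT against 8.01, 8.87 and 8.79 in N1-IC by its brightest probe set. The lowest array of each group was at the same level and the groups overlapped. The log2 difference was -0.35 ± 0.45 with a 95% interval of -1.44 to 0.74 (limma adjusted p of 0.824), and leaving out WT replicate 1 gave -0.0041, N1-IC replicate 1 -0.08 and WT replicate 3 -0.81. The other Il1r1 probe set had its N1-IC arrays below its WT arrays, at 2.52 to 2.64 against 2.69 to 2.94, below the lower quartile of the arrays.

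Il1r2, the decoy receptor gene, had 4.48, 6.73 and 6.59 in WT against 6.70, 7.62 and 7.02 in N1-IC. WT replicate 1 was the low array, as it was for the late granulocyte list, and N1-IC replicate 1 lay just below WT replicate 2. The log2 difference was 1.18 ± 0.63 (limma unadjusted p of 0.109, adjusted p of 0.663), with a 95% interval of -0.35 to 2.71. Without WT replicate 1 it was 0.45. The part of late granulocyte RNA in the Il1r2 difference was not tested.

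The co-receptor gene Il1rap, which IL-1, IL-33 and IL-36 receptors share, varied little by its brightest probe set. This lay at 8.61, 8.69 and 8.93 in WT against 8.65, 8.87 and 8.66 in N1-IC, with a log2 difference of -0.02 ± 0.13 and a 95% interval of -0.33 to 0.29 (limma adjusted p of 0.976). The probe set 1449585_at had 6.73, 7.17 and 6.89 in WT against 7.24, 7.16 and 7.31 in N1-IC. Only WT replicate 2 reached the N1-IC range, and the log2 difference was 0.31 ± 0.14 (limma unadjusted p of 0.0626, adjusted p of 0.644). The other 3 probe sets had log2 differences of -0.05 to -0.0033, 2 of them at levels below the lower quartile. The one above it, 1421843_at, had 4.47, 5.42 and 6.01 in WT against 5.26, 5.11 and 5.48 in N1-IC. Its WT arrays spread over both sides of the N1-IC arrays, and the log2 difference was -0.43 without WT replicate 1 and 0.34 without WT replicate 3. The probe sets of Il1rap therefore differed in sign.

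Downstream of the receptor, Myd88, the adaptor gene, had log2 values of 8.999, 9.23 and 8.96 in WT against 9.28, 9.56 and 9.35 in N1-IC. All N1-IC arrays were higher, by a gap of 0.05 log2 units between the nearest arrays. The log2 difference was 0.33 ± 0.13, a ratio of 1.26 (limma unadjusted p of 0.0364, adjusted p of 0.639). Irak1, the kinase gene, had 10.36, 10.20 and 10.15 in WT against 9.87, 9.95 and 9.94 in N1-IC by its brightest probe set. Every N1-IC array was lower, with a log2 difference of -0.31 ± 0.10 (limma unadjusted p of 0.0181, adjusted p of 0.639).

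The other Irak1 probe sets also had lower means in N1-IC. The probe set 1448668_a_at lay at 9.85 to 10.23 in WT against 9.51 to 9.78 in N1-IC, and 1460649_at at 9.79 to 9.94 and 9.53 to 9.76, so that neither overlapped. The fourth, 1438857_x_at, overlapped, at 6.80 to 6.98 and 6.60 to 6.83. Irak1 lies on chromosome X, and sex coincided with genotype. Of 617 X-linked genes by their brightest probe set, 5.35% were lower and 11.3% higher on every N1-IC array, with a median log2 difference of 0.02. Without WT replicate 2, the array with raised Xist, the log2 difference of Irak1 was -0.33. The part of sex in the Irak1 difference cannot be told apart from that of genotype. Casp1 lay at 11.36, 11.09 and 11.30 in WT against 10.95, 11.02 and 11.30 in N1-IC, overlapping, with a log2 difference of -0.16 ± 0.14 (limma adjusted p of 0.743). With 1 array left out this ran from -0.26 without N1-IC replicate 3 to -0.089 without N1-IC replicate 1.

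The members differed in how much they varied between arrays of the same group. The pooled within-group SD was 0.54 for Il1b, 0.70 for Il18, 0.58 for Il1rn, 0.67 for Il1r1 and 0.95 for Il1r2 by their brightest probe sets, at percentiles of 91.7 to 98.2 among all probe sets. It was 0.08 for Irak1, 0.15 for Myd88, 0.15 for Il1rap and 0.17 for Casp1, at percentiles of 11.0 to 43.0. Other probe sets of the same genes did not all follow this order: the SD was 0.56 for 1421843_at of Il1rap, 0.22 for 1423017_a_at of Il1rn and 0.10 for the second probe set of Il1r1. These percentiles take no account of intensity, and Il1a, near the bottom of the scale, had 0.21.

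For the 5 genes with an SD of at least 0.5 over the 6 arrays, the genes with the most similar profile were sought. The measure was the root mean square (RMS) difference between log2 values, each centred on its gene's mean over the arrays. Nearest to Il1rn were Rasgef1b (RMS difference of 0.20), Gm38910 (0.24) and Acacb (0.26). Rasgef1b had 6.65, 7.88 and 7.71 in WT against 8.48, 9.06 and 8.62 in N1-IC. Nearest to Il1r2 were Ccno (0.24), Samd9l (0.26) and Lcn2 (0.27), the last encoding the neutrophil granule protein lipocalin 2. Lcn2 had 9.96, 12.20 and 11.67 in WT against 12.07, 12.56 and 11.79 in N1-IC, so it shared the low WT replicate 1. Nearest to Il1b were Abca9 (0.12), Ly6i (0.16) and Rdh10 (0.17). Nearest to Il18 were Cers4 (0.13), H2-Oa (0.13) and Gm9895 (0.14), and nearest to Il1r1 were Galnt12 (0.19), Rgs1 (0.20) and Neurl3 (0.21). These are descriptions over 6 arrays with no test.

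The other genes of the pathway were taken from 4 lists, of which 58 of 67 genes had a probe set with a single gene symbol. In the limma fit 0 of the 58 passed, beside 0.0055% of all genes by their brightest probe set (1 gene, the Y-linked Eif2s3y). At an unadjusted p under 0.05 there were 4, 3 of them with a higher and 1 with a lower mean, beside 7.22% of all genes. Groups did not overlap for 5 higher and 2 lower genes, beside 8.32% and 6.52% of all genes. The median log2 difference over the 58 genes was 0.04.

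**Figure D4:**
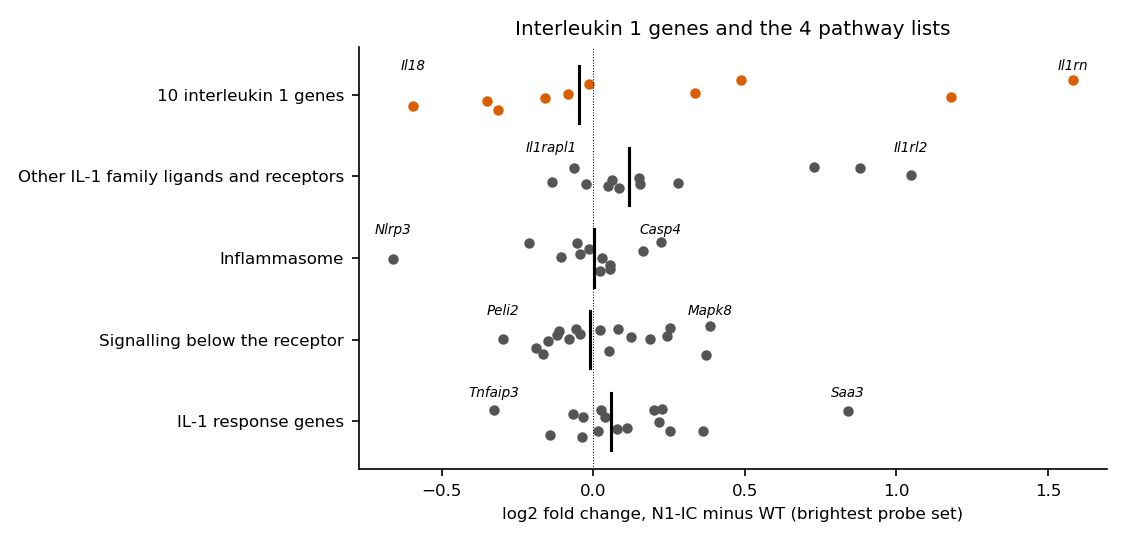
Log2 fold change, N1-IC minus WT (x axis), of the brightest probe set of each gene for the 10 interleukin 1 genes and the 4 pathway lists; points are genes, spread vertically for legibility, and black bars are list medians. Il1rn and Il1rl2 mark the upper ends of their rows, and Nlrp3 has the lowest value shown, -0.66.

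Other ligands and receptors of the IL-1 family had a higher mean for 9 and a lower mean for 3 of 12 measured genes, with a median log2 difference of 0.12. Il1rl2, the receptor for IL-36 cytokines, had 9.23, 10.48 and 10.23 in WT against 11.04, 11.28 and 10.76 in N1-IC. All N1-IC arrays were above all WT arrays, with a log2 difference of 1.05 ± 0.34 (limma unadjusted p of 0.0206, adjusted p of 0.639). Il18rap, the accessory chain of the IL-18 receptor, had 8.41, 8.80 and 9.37 in WT against 10.02, 9.64 and 9.56 in N1-IC, again without overlap, and a log2 difference of 0.88 ± 0.26 (limma unadjusted p of 0.0148, adjusted p of 0.639). Its other probe set also separated the groups, at 5.98 to 6.64 against 6.88 to 7.31, while the other Il1rl2 probe set overlapped at 3.46 to 3.92 over all arrays. Il1f9, which encodes IL-36γ, had a log2 difference of 0.73 ± 0.50 with WT replicate 1 lowest at 4.39. Il1rapl1 lay at 2.20 to 2.45, below the lower quartile.

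In RefSeq the protein-coding genes Il1r2, Il1r1, Il1rl2, Il1rl1, Il18r1 and Il18rap follow each other on chromosome 1. Of these 6, 5 had a probe set with a single gene symbol. They did not share a pattern over the arrays. Il1r2, Il1rl2 and Il18rap had a higher mean in N1-IC and were lowest in WT replicate 1. Il1r1, which lies between Il1r2 and Il1rl2, was highest in WT replicate 1. Il18r1 lay at 3.102 to 3.72, below the lower quartile on every array, with a log2 difference of 0.15 ± 0.18.

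**Figure D5:**
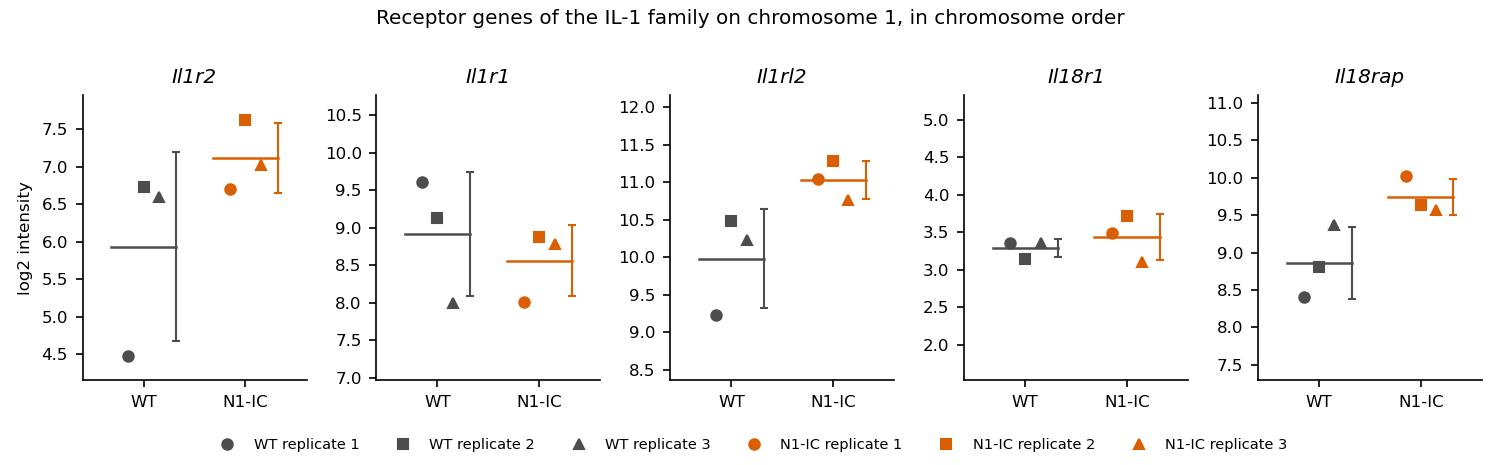
Log2 intensity (y axis, each panel spanning 3.8 log2 units) of 5 neighbouring receptor genes of chromosome 1 on the 3 WT and 3 N1-IC arrays; horizontal lines are group means and bars the SD. Il1rl2 and Il18rap lie higher on all N1-IC arrays, while the groups overlap for Il1r2, Il1r1 and Il18r1.

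Inflammasome genes had higher and lower means equally often, for 6 and 6 of 12 measured genes, with a median log2 difference of 0.0037. Nlrp3, the sensor that nucleates the best studied inflammasome, had 7.53, 7.74 and 7.18 in WT against 6.99, 7.12 and 6.35 in N1-IC. All N1-IC arrays were lower, with a log2 difference of -0.66 ± 0.25 (limma unadjusted p of 0.0348, adjusted p of 0.639). The adaptor gene Pycard had -0.21 ± 0.13, Casp4, the non-canonical caspase, 0.22 ± 0.13, and Nek7, a partner of NLRP3, 0.16 ± 0.10, all with limma adjusted p values of 0.672 to 0.688. Of these only Nek7 separated the groups, and its other 2 probe sets overlapped.

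Genes of signalling below the receptor had a higher mean for 9 and a lower mean for 9 of 18 measured members, and their log2 differences ran from -0.30 to 0.39. Ikbkg, the X-linked regulatory subunit of the IκB kinase, was higher on every N1-IC array, at 10.001, 9.96 and 10.19 against 9.82, 9.74 and 9.86 in WT, a log2 difference of 0.24 ± 0.10 (limma unadjusted p of 0.0565, adjusted p of 0.644). Its other 5 probe sets had log2 differences of 0.09 to 0.90, of which 2 separated the groups and 3 overlapped. The stress kinase gene Mapk8 had 0.39 ± 0.20, the ubiquitin ligase gene Peli1 0.37 ± 0.22 and the NF-κB subunit gene Rela 0.19 ± 0.13, all with overlapping groups. Other probe sets of Mapk8 ran from -0.28 to 0.79, 1 of 4 higher on every N1-IC array, and those of Peli1 from -0.37 to 0.33, where the lowest, 1 of 4, was lower on every N1-IC array.

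Genes known to respond to IL-1 had a higher mean for 11 and a lower mean for 5 of 16 genes, with a median log2 difference of 0.06. Csf2, which encodes the growth factor GM-CSF, was higher on every N1-IC array, at 4.58, 4.58 and 4.34 against 4.09, 4.14 and 4.19, a log2 difference of 0.36 ± 0.11 at a level below the array medians (limma unadjusted p of 0.0136, adjusted p of 0.639). Saa3, an acute phase gene, had 0.84 ± 0.58, Icam1 0.25 ± 0.18 and Nfkbiz -0.14 ± 0.10, with overlapping groups; the other 2 probe sets of Nfkbiz had 0.26 and -0.10 and overlapped too. The NF-κB feedback inhibitor gene Nfkbia had -0.04 ± 0.10 with a 95% interval of -0.29 to 0.22.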

How the data were processed

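Total RNA (5 ng per sample) of 6 sorted samples was amplified, biotin-labelled and hybridised to Affymetrix arrays. The authors deposited linear intensities for each probe set. RMA, named in the submitters' processing notes without a version, subtracts background, normalizes between arrays and summarises probes. Because arrays were brought to nearly 1 distribution (sorted log2 values within 0.103 of the mean array), differences are relative to other genes.

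Log2 was taken with no offset. Of 45101 probe sets, 64 Affymetrix controls were left out. A probe set was named where the platform annotation, which can be old, gives 1 symbol (34958 probe sets; 932 had several, 9211 none), and symbols were updated through Entrez identifiers to RefSeq (GRCm38.p6; 34754 matched). A list gene counts as measured where at least 1 probe set carries its symbol alone. A gene not counted may still share a probe set with other genes. A gene is represented by its brightest probe set unless another is named. All 45037 probe sets were fitted in R 4.3.3 with limma 3.58.1 (lmFit, eBayes, no block), with Benjamini-Hochberg adjustment over all of them and a threshold of 0.05; errors of differences are moderated standard errors. The fit was tested on simulated data. Groups were called non-overlapping where all 3 arrays of one lay above all 3 of the other.

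Members and lists were chosen with earlier results of these data known. Named were all members, the 4 genes of smallest p in each pathway list, and 3 genes of most similar profile for each member with an SD of at least 0.5. Further genes are Nfkbia, Il18r1, the sort gate genes, Eif2s3y, Xist, Notch1 and the Notch targets. Of these, Nfkbia, Il18r1, the sort gate genes and Eif2s3y were chosen after their values were seen. Alternatives were array weights, a robust prior, a mean-variance trend, renewed quantile normalization, median centring, an offset of 16, a level filter, gene-level fits, a replicate block, a threshold of 0.1 and each array left out. The number of arrays limits the precision. Scanner files and detection calls were not used here.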

Additional observations from a re-analysis of the deposited data

How the results depend on the processing

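None of the 20 member probe sets and none of the 58 pathway genes passed a limma adjusted p of 0.05 under any alternative, a threshold of 0.1 included. The number of all probe sets past the threshold, 4 in the fit reported, was 7 with a mean-variance trend, 1 with the brightest probe set per gene, 10 at a threshold of 0.1 and 2 with a replicate block, and 3 to 8 with 1 array left out, highest without WT replicate 2. The count of member probe sets whose groups do not overlap, 7 over all arrays, was 8 to 12 with 1 array left out (chosen after seeing the data; highest without WT replicate 2), where 22.7% to 32.3% of all probe sets did not overlap.

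Of the alternatives, 10 can move the log2 difference of a brightest probe set (array weights, renewed quantile normalization, median centring, the offset and each array left out). Under these 10 it kept its sign for the 8 members other than Il1a and Il1rap, and ran from 1.18 to 1.84 for Il1rn, 0.25 to 0.42 for Myd88 and -0.36 to -0.25 for Irak1. Il1rap turned from -0.02 to 0.04 with renewed quantile normalization and 0.044 with the mean of its probe sets, and ran from -0.089 to 0.078 with 1 array left out; Il1a ran from -0.24 to 0.0034. Il1a and Il18 lie below the level filter and had no value there.

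The labels number replicates 1 to 3 in both groups but do not say that a number marks a shared animal, litter or day. The numbers were therefore not taken as pairs, and whether they mark pairs is not known. Over all probe sets, deviations from the group means of same-numbered samples correlated at 0.013, 0.040 and -0.077. Means of the IL-1 response list shared an order, at 7.81, 8.09 and 7.62 in WT replicates 1 to 3 and 7.87, 8.19 and 7.79 in N1-IC. The inflammasome list was highest in WT replicate 1 and N1-IC replicate 2. With the replicate block the log2 difference of Il1rn was the same. Its standard error was 0.25 instead of 0.39, its limma unadjusted p 0.0023 instead of 0.0064 and its adjusted p 0.717. By the brightest probe sets the standard error also fell for Il1r2 (unadjusted p of 0.033), Il1b (0.091) and Myd88 (0.033). It rose for Il1a, Il18, Il1r1, Il1rap, Casp1 and Irak1 (unadjusted p of 0.057 for Irak1).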
